A study of Mus musculus with 24 samples.

Results

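The core clock genes described here are Arntl, Clock, Per1, Per2, Per3, Cry1, Cry2, Nr1d1, Nr1d2 and Dbp, 10 of the 54532 genes in the deposited table, taken by gene name and followed through all 24 libraries. The libraries hold polyadenylated RNA from epididymal fat (eWAT, a visceral depot) and inguinal fat (iWAT, a subcutaneous depot) of C57BL6 mice. The mice had received AAV-irisin, an adeno-associated virus carrying the exercise-associated hormone irisin, or AAV-GFP, the control virus carrying green fluorescent protein. They were kept for 18 weeks on a high-fat diet (HFD) or on normal chow. Each depot has 4 groups of 3 libraries, irisin HFD, GFP HFD, irisin chow and GFP chow, so every mouse carried a virus, the controls included. The labels give neither the promoter of the viruses, nor the sex or age of the mice, nor the time of day at which fat was collected. Nothing in them ties a library to its own mouse, so p-values measure the spread between libraries, which may be technical. A library is named below by its depot, virus, diet and number.

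In the mammalian clock, ARNTL (also called BMAL1) and CLOCK pair on E-boxes and switch on the Per and Cry genes, whose proteins return to the nucleus and hold the pair back. ARNTL and CLOCK also switch on Nr1d1 and Nr1d2, which encode the REV-ERB receptors that repress Arntl, and Dbp, which encodes a factor acting through D-boxes. Arntl therefore peaks at about the opposite time of day to Nr1d1, Dbp and Per3 in mouse tissues, fat included, while Cry1 peaks later than the other ARNTL targets. RNA taken at a single moment gives a level at that moment, not an amplitude or a phase.

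Reads per library, recovered from the FPKM values (fragments per unit of gene length, scaled to the size of the library), numbered 14145644 to 19726771. Tbx15, a gene of subcutaneous fat, ran from 2.88 to 14.2 FPKM in iWAT and from 0 to 0.0896 FPKM in eWAT. In 4 libraries, genes of other tissues stood far above the rest of their group: 5 B cell genes summed to 404 FPKM in iWAT GFP HFD 1 and to 116 FPKM in eWAT GFP chow 1, 5 skeletal muscle genes to 3380 FPKM in iWAT irisin chow 3, and 4 epididymis genes to 828 FPKM in eWAT GFP HFD 3. A composition index, the median log2 deviation of 1325 AT-rich genes minus that of 2651 GC-rich genes from their depot means, ran from -0.397 to 0.317 over the libraries and tracked some clock genes closely. Each clock gene that lost or gained a call without the 4 libraries, or with the index as a covariate, is named beside its result. A fit of 1 depot lost only those of the 4 from that depot, which in eWAT were both GFP libraries. Both checks were added after the data were seen.

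Promoter windows of 250 bases before to 50 after a transcription start were matched by symbol in RefSeq (GRCm38.p6) for 9 of the 10 genes, Per2 being the other, and gave 13 windows. They were searched on both strands for the E-box CACGTG, the E-prime box CACGTT, the D-box TTATGTAA or TTACGTAA, the ROR element TAGGTCA and the cAMP response element TGACGTCA. Of the windows with a match, 4 are shown because they carry the elements through which the loop is known to run, in genes on opposite sides of it. Capitals mark the matches, and each sequence is printed on the strand of its gene. The Arntl window (chr7:113207261-113207560, plus strand) holds a ROR element, the kind of element that REV-ERB proteins occupy.
Arntl: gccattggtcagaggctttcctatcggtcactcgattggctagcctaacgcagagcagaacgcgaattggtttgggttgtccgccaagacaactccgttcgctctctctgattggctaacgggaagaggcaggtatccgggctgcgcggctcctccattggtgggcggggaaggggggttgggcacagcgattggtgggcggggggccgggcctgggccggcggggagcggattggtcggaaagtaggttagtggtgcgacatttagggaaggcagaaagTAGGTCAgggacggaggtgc
The Per3 window (chr4:151044616-151044915, minus strand) holds D-boxes at 205 and 158 bases before the start.
Per3: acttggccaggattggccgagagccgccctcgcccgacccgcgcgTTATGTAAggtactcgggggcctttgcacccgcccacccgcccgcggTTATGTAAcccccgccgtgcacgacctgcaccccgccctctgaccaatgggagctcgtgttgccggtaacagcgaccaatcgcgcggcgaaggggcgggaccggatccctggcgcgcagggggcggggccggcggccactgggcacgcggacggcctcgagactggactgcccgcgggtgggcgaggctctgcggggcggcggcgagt
The Cry1 window (chr10:85185005-85185304, minus strand) holds an E-prime box and an E-box.
Cry1: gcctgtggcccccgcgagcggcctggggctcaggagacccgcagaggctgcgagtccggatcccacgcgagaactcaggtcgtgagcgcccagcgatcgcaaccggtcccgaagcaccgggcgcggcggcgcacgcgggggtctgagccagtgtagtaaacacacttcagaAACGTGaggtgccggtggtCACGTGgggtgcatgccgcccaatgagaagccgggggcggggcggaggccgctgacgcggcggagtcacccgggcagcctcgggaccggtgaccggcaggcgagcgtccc
The Nr1d1 window (chr11:98775328-98775627, minus strand) holds an E-prime box 28 bases before the start.
Nr1d1: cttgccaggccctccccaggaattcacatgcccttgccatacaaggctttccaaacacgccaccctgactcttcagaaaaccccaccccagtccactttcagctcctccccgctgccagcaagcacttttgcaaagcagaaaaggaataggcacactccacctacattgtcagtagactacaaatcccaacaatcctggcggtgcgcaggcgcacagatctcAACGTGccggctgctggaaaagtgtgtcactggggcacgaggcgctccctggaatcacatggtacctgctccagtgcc
An E-box was also found in a Per1 window and an E-prime box in the Cry2 window, while the Dbp, Clock and Nr1d2 windows held none of the 5 motifs. Of all 32851 RefSeq mouse windows of this length, 7.15% held the E-box, 4.68% the E-prime box, 1.06% a D-box, 2.61% the ROR element and 1.79% the cAMP response element. A match is a run of letters and was not tested as a binding site. None of these motifs overlap another in the windows shown.

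All 10 genes were measured above 1 FPKM in every library. Nr1d1 was the most abundant, with a mean of 50.4 FPKM over the 24 libraries, followed by Per1 (15.8), Nr1d2 (11.4), Cry2 (11.3), Dbp (10.6), Clock (6.35), Per3 (4.56), Per2 (3.59), Cry1 (2.67) and Arntl (2.59). Nr1d2, Cry2 and Dbp lay closer together than their SDs over libraries of 3.58, 3.37 and 6.75 FPKM, as did Cry1 and Arntl (0.786 and 0.504 FPKM). The genes also differed in how far they moved. Dbp spanned 11.8-fold between its lowest and its highest library, Nr1d1 9.56-fold and Per3 7.12-fold, whereas Arntl spanned 2.06-fold and Nr1d2 2.93-fold.

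**Figure D1:**
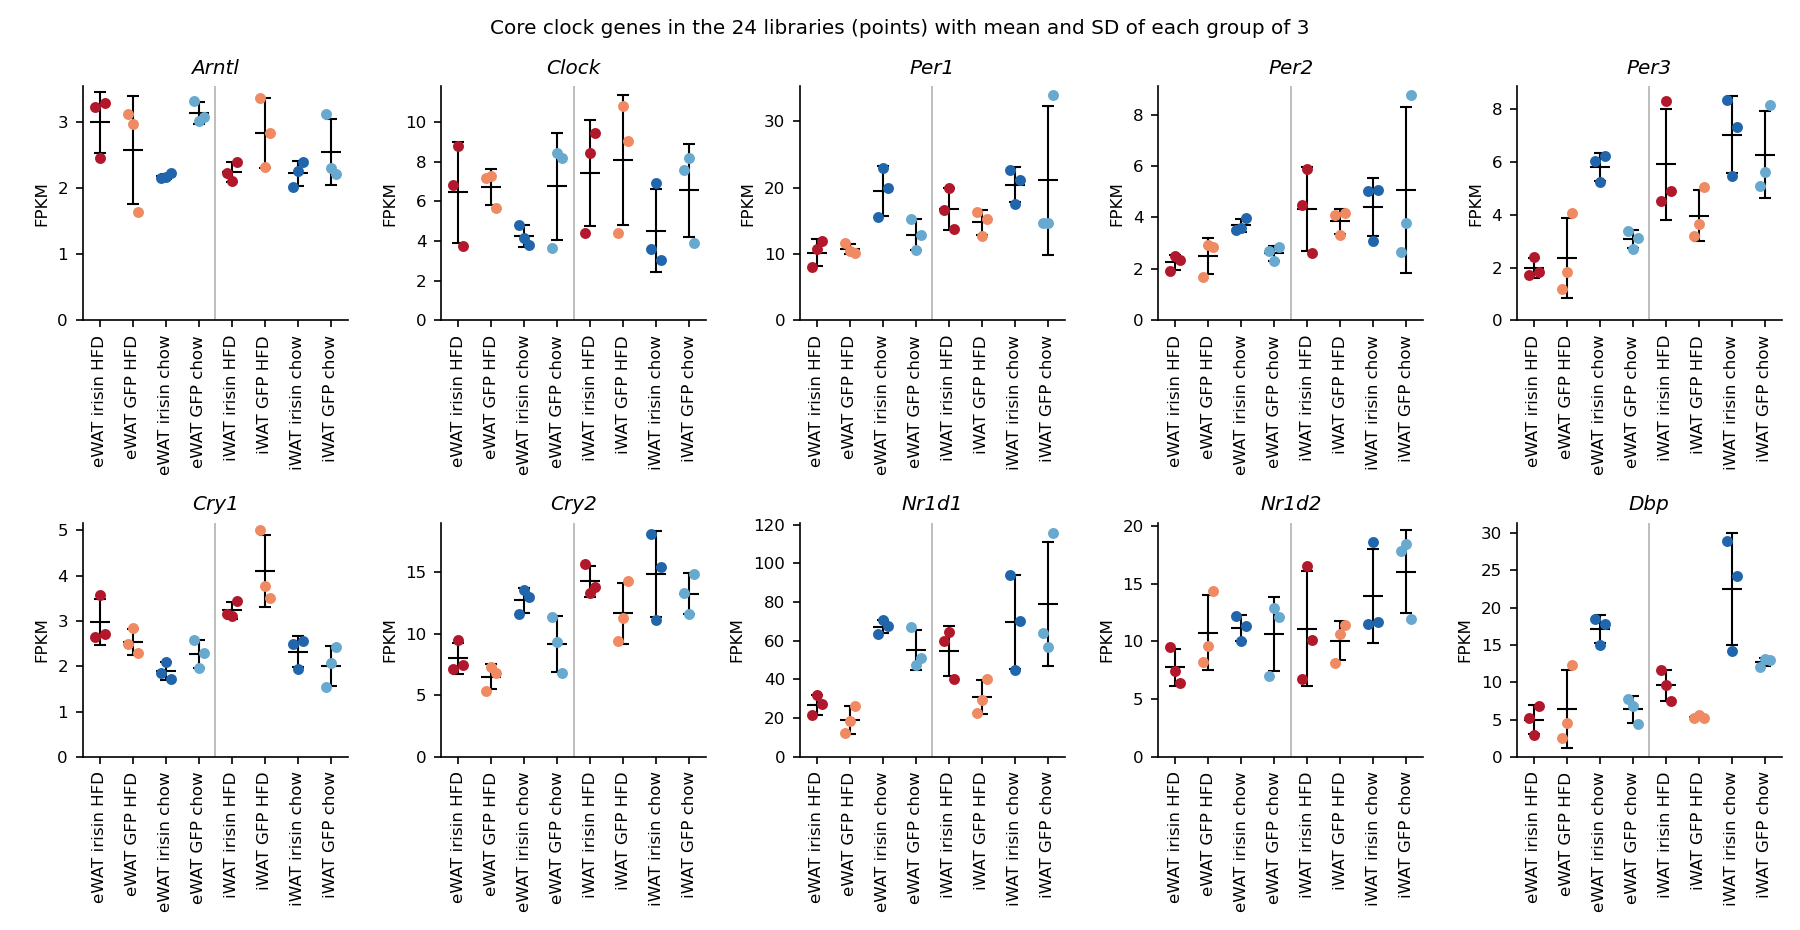
FPKM of each clock gene by group, eWAT groups left of the line and iWAT groups right of it, with 1 point per library and the mean and SD of 3 libraries. Nr1d1 in eWAT sits between 12.1 and 31.8 FPKM on HFD and between 47.6 and 70.6 FPKM on chow, while Arntl stays between 1.63 and 3.36 FPKM in all 24 libraries.

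In eWAT, HFD libraries held less Nr1d1, Dbp, Per3, Per1, Cry2 and Per2 and more Cry1 than chow libraries, and Nr1d1 moved farthest. With both viruses averaged in a limma fit on log2(FPKM + 0.5), 7 of the 10 clock genes passed an adjusted p of 0.05, against 39.3% of all 16274 genes tested. Of these, 6 were lower, against 18.4% of all genes, and 1 was higher, against 20.9% of all genes. Without a filter on low values 4 were called, and also without eWAT irisin chow 1 or without eWAT irisin chow 3. The median difference over the 10 genes was -0.45 on the log2 scale, against -0.003 over all genes.

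The REV-ERB receptors carry the ARNTL signal back to Arntl. Nr1d1 had 21.5, 31.8 and 27.2 FPKM in irisin HFD and 12.1, 18.5 and 26.5 FPKM in GFP HFD libraries, against 63.7, 70.6 and 67.7 FPKM in irisin chow and 67.1, 47.6 and 51.3 FPKM in GFP chow libraries. All 6 HFD libraries were below all 6 chow libraries, and Nr1d1 was the only clock gene in eWAT of which that held, against 7.04% of all genes; none had all 6 above, against 8.33% of all genes. It fell by 1.45 ± 0.17 on the log2 scale (SE, adjusted p = 0.000189, limma). Nr1d2 had 9.48, 7.42 and 6.37 FPKM in irisin HFD and 8.24, 9.63 and 14.4 FPKM in GFP HFD libraries, against 12.2, 10 and 11.3 FPKM in irisin chow and 6.99, 12.9 and 12.1 FPKM in GFP chow libraries. Its groups overlapped, and its difference of -0.24 ± 0.18 did not pass (adjusted p = 0.303, limma). Without the 4 libraries it was -0.49 ± 0.12 and passed (adjusted p = 0.0134, limma).

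Dbp, the D-box activator that follows ARNTL most directly, had 5.23, 2.90 and 6.78 FPKM in irisin HFD and 2.46, 4.48 and 12.3 FPKM in GFP HFD libraries, against 18.5, 15 and 17.8 FPKM in irisin chow and 7.80, 6.87 and 4.38 FPKM in GFP chow libraries. The 3 irisin chow libraries stood above all others, and the remaining 9 overlapped. Dbp fell by 0.99 ± 0.32 (adjusted p = 0.0321, limma), and the call was lost with the composition index as a covariate (-0.79, adjusted p = 0.0744, limma) and in 8 of the 12 fits that left out 1 library.

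The Per genes encode the repressors that pair with the Cry proteins. Per3 had 1.72, 2.42 and 1.83 FPKM in irisin HFD and 1.17, 1.83 and 4.08 FPKM in GFP HFD libraries, against 6.04, 5.23 and 6.23 FPKM in irisin chow and 3.38, 2.71 and 3.12 FPKM in GFP chow libraries, and fell by 0.90 ± 0.21 (adjusted p = 0.00587, limma). Only eWAT GFP HFD 3, the library with epididymis genes, reached into the chow range. Per1 had 8.03, 10.7 and 11.9 FPKM in irisin HFD and 11.6, 10.5 and 10.2 FPKM in GFP HFD libraries, against 15.5, 22.9 and 20.0 FPKM in irisin chow and 15.3, 10.6 and 12.8 FPKM in GFP chow libraries, and fell by 0.57 ± 0.13 (adjusted p = 0.00556, limma). Per2 averaged 2.37 ± 0.494 FPKM on HFD and 3.15 ± 0.644 FPKM on chow (SD, n = 6 each) and fell by 0.35 ± 0.13, close to the threshold (adjusted p = 0.0481, limma). Its call was lost with the index as a covariate (adjusted p = 0.0754, limma), without the 4 libraries (adjusted p = 0.0621, limma) and in 8 of the 12 fits that left out 1 library.

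The Cry genes, which encode the stronger repressors of the pair, went opposite ways. Cry2 had 7.11, 9.46 and 7.47 FPKM in irisin HFD and 5.35, 7.33 and 6.82 FPKM in GFP HFD libraries, against 11.6, 13.6 and 13.0 FPKM in irisin chow and 11.4, 9.32 and 6.85 FPKM in GFP chow libraries, and fell by 0.55 ± 0.13 (adjusted p = 0.00703, limma). Cry1 had 2.65, 3.57 and 2.71 FPKM in irisin HFD and 2.48, 2.85 and 2.29 FPKM in GFP HFD libraries, against 1.85, 2.10 and 1.72 FPKM in irisin chow and 2.57, 1.96 and 2.29 FPKM in GFP chow libraries, and rose by 0.33 ± 0.10 (adjusted p = 0.0255, limma). In both genes the HFD and chow ranges overlapped through the GFP chow libraries.

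The activators at the top of the loop gave no call. Arntl averaged 2.78 ± 0.638 FPKM on HFD and 2.66 ± 0.536 FPKM on chow (SD, n = 6 each), a log2 difference of 0.05 ± 0.14 (adjusted p = 0.814, limma). Clock averaged 6.59 ± 1.71 FPKM on HFD and 5.51 ± 2.21 FPKM on chow (SD, n = 6 each), a difference of 0.27 ± 0.23 (adjusted p = 0.37, limma), and of -0.01 ± 0.09 with the index as a covariate.

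Genes that mark some cell types moved with diet in eWAT, whereas none of 5 B cell genes passed. All 5 macrophage genes passed as higher, and their summed level was 794 to 4000 FPKM on HFD, against 503 to 995 FPKM on chow. Of 5 adipocyte genes 3 passed as lower and 1 as higher, with sums of 2720 to 7350 FPKM on HFD and 4220 to 5510 FPKM on chow. Of 3 mesothelial genes all passed as lower, with sums of 13.9 to 131 FPKM on HFD and 159 to 286 FPKM on chow. In bulk tissue, fewer cells of a type and less RNA per cell cannot be told apart, and the part of cell makeup in the clock differences was not tested as a whole.

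Taken by virus, the eWAT diet difference was called for 7 clock genes in irisin mice, against 17.4% of all genes, and for 1 in GFP mice, against 26.5% of all genes. The calls in irisin mice were 1 higher, against 9.47% of all genes, and 6 lower, against 7.93%, and the 1 in GFP mice was lower, against 11.8%. In irisin mice the HFD and chow libraries did not overlap for 9 clock genes: Cry1 and Arntl lay higher on HFD, against 18.9% of all genes, and the 7 others, all but Clock, lay lower, against 17.6%. In GFP mice Nr1d1 alone was apart, lower on HFD, against 21.1% of all genes. In irisin mice Dbp fell by 1.75 ± 0.46 (adjusted p = 0.0257), Per3 by 1.36 (adjusted p = 0.0128), Nr1d1 by 1.33 (adjusted p = 0.00701), Per1 by 0.90 (adjusted p = 0.01), Cry2 by 0.64 (adjusted p = 0.0369) and Per2 by 0.61 (adjusted p = 0.039), while Cry1 rose by 0.53 (adjusted p = 0.0316, all limma). In GFP mice Nr1d1 fell by 1.57 ± 0.25 (adjusted p = 0.00194, limma), and Dbp and Per3 differed by -0.22 ± 0.46 and -0.44 ± 0.29 without passing. The difference between the viruses was itself tested as an interaction, and no clock gene passed it. At an unadjusted p under 0.05 there were 3 clock genes, against 658 of all 16274 genes, and voom called 0 clock genes. The interaction for Dbp was -1.53 ± 0.65 (adjusted p = 0.908), for Per1 -0.67 ± 0.26 (adjusted p = 0.908) and for Arntl 0.66 ± 0.27 (adjusted p = 0.908, all limma) against 0.00614% of all genes called, 1 of 16274. The 7 calls in irisin mice became 2 without eWAT irisin chow 3 and 3 without a filter on low values, and in GFP mice Per3 was called as well without the 4 libraries (-0.79, adjusted p = 0.0342, limma). In irisin mice Nr1d2, at -0.51 with an adjusted p of 0.181, passed without the 4 libraries (-0.51 ± 0.15, adjusted p = 0.0465) and with the index as a covariate (-0.70 ± 0.22, adjusted p = 0.0414), and Cry2 lost its call with the index (-0.54 ± 0.18, adjusted p = 0.0501, all limma). None of the 4 is an eWAT irisin library. Leaving them out therefore kept the Nr1d2 difference and changed only the spread shared by the groups, its SE going from 0.25 to 0.15.

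In iWAT, HFD libraries held less Dbp and Nr1d1 and more Cry1. With both viruses averaged, 3 of the 10 clock genes passed, against 17.5% of all 16125 genes tested; 2 were lower, against 8.02% of all genes, and 1 was higher, against 9.45%. The median difference over the 10 genes was -0.23 on the log2 scale, against -0.016 over all genes.

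Dbp had 11.6, 9.69 and 7.50 FPKM in irisin HFD and 5.19, 5.58 and 5.23 FPKM in GFP HFD libraries, against 28.9, 14.2 and 24.3 FPKM in irisin chow and 12.1, 13.1 and 13.0 FPKM in GFP chow libraries. Every HFD library was below every chow library, which held for 3.16% of all genes. Dbp fell by 1.17 ± 0.16 (adjusted p = 0.00134), by 1.15 ± 0.23 in irisin mice (adjusted p = 0.0159) and by 1.18 ± 0.23 in GFP mice (adjusted p = 0.0262, all limma). Cry1 had 3.16, 3.10 and 3.44 FPKM in irisin HFD and 5.0, 3.78 and 3.51 FPKM in GFP HFD libraries, against 2.49, 1.93 and 2.55 FPKM in irisin chow and 1.54, 2.07 and 2.42 FPKM in GFP chow libraries. Here every HFD library was above every chow library, as for 4.76% of all genes, and Cry1 rose by 0.64 ± 0.13 (adjusted p = 0.00791, limma).

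Nr1d1 in iWAT had 59.7, 64.7 and 40.2 FPKM in irisin HFD and 22.7, 29.5 and 40.1 FPKM in GFP HFD libraries, against 93.8, 45.1 and 70.3 FPKM in irisin chow and 64.2, 57.0 and 116 FPKM in GFP chow libraries. The groups were apart in GFP mice, lower on HFD as for 11.3% of all genes, and overlapped in irisin mice. Nr1d1 fell by 0.81 ± 0.24 (adjusted p = 0.0399, limma), and the call was lost without the 4 libraries (-0.69 ± 0.27, adjusted p = 0.107, limma) and in 8 of the 12 fits that left out 1 library, whose adjusted p reached 0.0977 (limma). The difference was -0.31 ± 0.34 in irisin mice and -1.31 ± 0.34 in GFP mice (adjusted p = 0.0714, limma), and the interaction of 1.0 ± 0.48 did not pass (adjusted p = 0.688, limma). No gene passed the iWAT interaction by limma or by voom, with 996 genes, 0 of them clock genes, at an unadjusted p under 0.05.

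The other 7 genes were not called in iWAT. Nr1d2 averaged 10.6 ± 3.36 FPKM on HFD and 15 ± 3.64 FPKM on chow (SD, n = 6 each), a difference of -0.50 ± 0.22 (adjusted p = 0.135) that passed with the composition index as a covariate (-0.66 ± 0.11, adjusted p = 0.00426, both limma). Per3 differed by -0.43 ± 0.19 (adjusted p = 0.133), Clock by 0.47 ± 0.29, Per1 by -0.34 ± 0.20, Per2 by -0.13 ± 0.27, Cry2 by -0.11 ± 0.14 and Arntl by 0.07 ± 0.12. Taken by virus, Dbp alone was called in irisin mice, as lower, against 9.01% of all genes in either direction, 4.19% lower and 4.82% higher. In GFP mice Dbp was called as lower and Cry1 as higher (0.87 ± 0.18, adjusted p = 0.0335, limma), against 2.37% of all genes in either direction, 0.924% lower and 1.44% higher. Neither virus had a call without the 4 libraries, where Dbp differed by -1.06 ± 0.27 in irisin mice (adjusted p = 0.0512) and by -1.17 ± 0.27 in GFP mice (adjusted p = 0.0743), and Cry1 by 0.74 ± 0.19 in GFP mice (adjusted p = 0.0893, all limma). GFP mice also had none without a filter on low values or with only their own 6 libraries fitted. With the composition index as a covariate there were 4 calls in GFP mice and 2 in irisin mice. The calls gained were Nr1d1 (-1.27 ± 0.29, adjusted p = 0.0395) and Nr1d2 (-0.69 ± 0.16, adjusted p = 0.0373) in GFP mice and Nr1d2 (-0.62 ± 0.16, adjusted p = 0.0366, all limma) in irisin mice. No macrophage gene passed for diet in iWAT, where the 5 genes summed to 142 to 559 FPKM on HFD and to 128 to 1190 FPKM on chow, and 4 of 5 muscle genes were lower on HFD, at 9.28 to 30.5 FPKM against 17.2 to 3380 FPKM on chow. Their part in the clock differences was not tested.

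**Figure D2:**
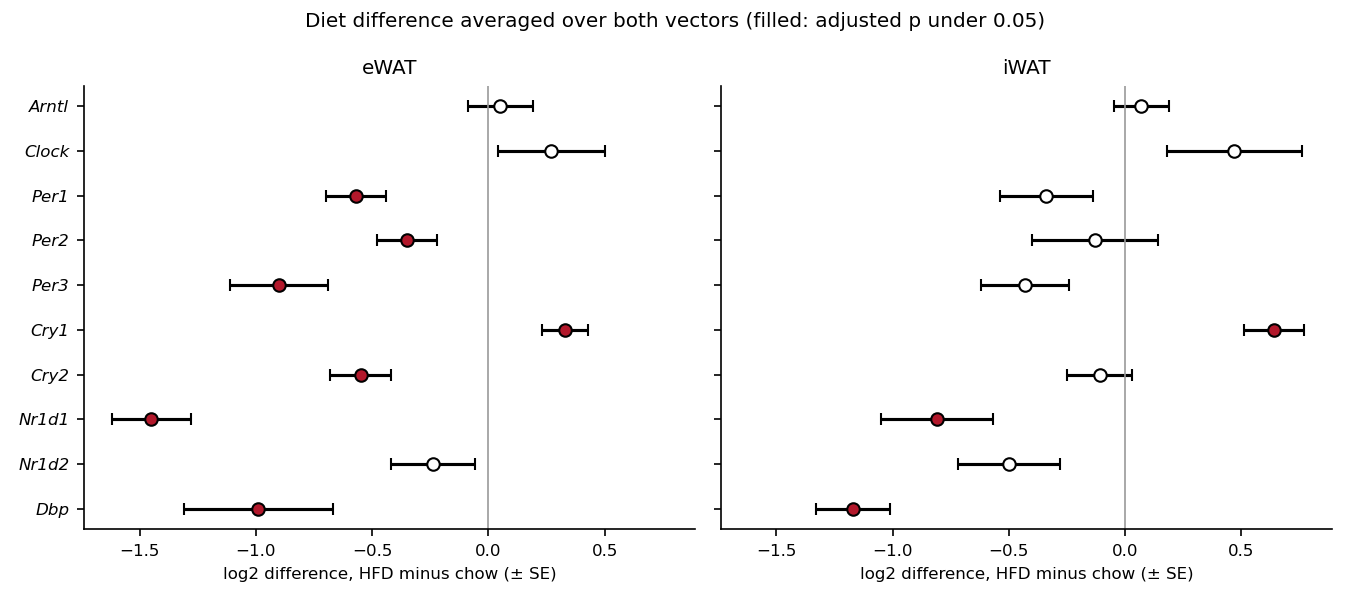
HFD minus chow for each clock gene on the log2(FPKM + 0.5) scale, averaged over both viruses, with SE; eWAT left, iWAT right, filled points passing an adjusted p of 0.05. Nr1d1 is at -1.45 in eWAT and -0.81 in iWAT, Dbp at -0.99 and -1.17, and Cry1 at 0.33 and 0.64, while Arntl is near 0 in both depots.

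The diet differences of the depots were set against each other in a fit over all 24 libraries, and no clock gene passed, against 16.1% of all 17687 genes, 9.23% higher and 6.86% lower. At an unadjusted p under 0.05 there was 1 clock gene, against 5191 of all 17687 genes, and voom called 0 clock genes. Cry2, called in eWAT only, differed by -0.44 ± 0.19 between the depots (adjusted p = 0.139), and Nr1d1 by -0.63 ± 0.31 (adjusted p = 0.183). The Dbp and Arntl diet differences lay at 0.18 ± 0.38 and -0.03 ± 0.18 from each other (adjusted p = 0.809 and 0.942, all limma).

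The level itself differed by depot. Averaged over the 4 groups, 6 clock genes were lower in eWAT than in iWAT and none was higher, against 25.4% of all genes called in either direction and 11.3% called lower. Per3 averaged 3.31 ± 1.73 FPKM in eWAT and 5.80 ± 1.81 FPKM in iWAT (SD, n = 12 each), a log2 difference of -0.81 ± 0.14 (adjusted p = 0.000449). Cry2 averaged 9.11 ± 2.72 FPKM in eWAT and 13.5 ± 2.40 FPKM in iWAT, a difference of -0.58 ± 0.10 (adjusted p = 0.000249, both limma). Dbp (-0.57 ± 0.19, adjusted p = 0.0347), Per2 (-0.55 ± 0.15, adjusted p = 0.012), Nr1d1 (-0.54 ± 0.16, adjusted p = 0.0154) and Per1 (-0.45 ± 0.13, adjusted p = 0.0131, all limma) were the others. Arntl, at 2.72 ± 0.565 FPKM in eWAT and 2.46 ± 0.418 FPKM in iWAT (SD, n = 12 each), was the only clock gene with a positive depot difference, 0.11 ± 0.09 (adjusted p = 0.389, limma). With the index as a covariate 8 clock genes were called lower, the additions being Nr1d2 (-0.30 ± 0.09, adjusted p = 0.0206) and Cry1 (-0.20 ± 0.07, adjusted p = 0.0423, both limma). The index is taken from depot means, so that fit could not remove a composition difference between the depots. Without the index Nr1d2 and Cry1 differed by the same -0.30 and -0.20, with larger SEs of 0.15 and 0.08. The share of all genes called in that fit is not given here. Of 5 macrophage genes 4 were higher in eWAT, and of 5 adipocyte genes 2 were lower, and their part in the depot differences was not tested.

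Irisin against GFP gave no call at an adjusted p of 0.05 for any clock gene, in either depot or on either diet, against 0.0% of all genes in each of the 4 comparisons. In eWAT 1510 of 16274 genes on HFD and 845 on chow had an unadjusted p under 0.05, and in iWAT 431 and 688 of 16125. Of the clock genes, 0 in eWAT on HFD, 6 in eWAT on chow, 2 in iWAT on HFD and 1 in iWAT on chow had an unadjusted p under 0.05, and a voom fit of the recovered reads called 0 of 10 in each. In eWAT on chow, Dbp, Per3, Per1, Cry2 and Per2 were higher in all 3 irisin libraries than in all 3 GFP libraries, against 5.63% of all genes, and Arntl was lower in all 3, against 4.38% of all genes. Dbp had 18.5, 15 and 17.8 FPKM in irisin chow, against 7.80, 6.87 and 4.38 FPKM in GFP chow, a difference of 1.39 ± 0.46 (adjusted p = 0.939, limma). Arntl had 2.15, 2.16 and 2.22 FPKM in irisin chow, against 3.32, 3.01 and 3.08 FPKM in GFP chow, a difference of -0.44 ± 0.19 (adjusted p = 0.939, limma). Per3 differed by 0.83 ± 0.29, Per1 by 0.57 ± 0.18, Cry2 by 0.47 ± 0.18 and Per2 by 0.44 ± 0.18, each with an adjusted p of 0.939 (limma). These libraries also differed in other ways. The composition index was -0.068, -0.256 and -0.258 in irisin chow, against -0.369, 0.173 and 0.317 in GFP chow, and the B cell sum was 5.75, 3.45 and 2.65 FPKM in irisin chow, against 116, 8.25 and 20.4 FPKM in GFP chow. With the index as a covariate the Dbp difference was 1.09 ± 0.46 and without the 4 libraries it was 1.55 ± 0.34 (adjusted p = 0.801 and 0.121, limma).

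On HFD, no clock gene had its irisin and GFP libraries apart in eWAT, against 6.66% of all genes apart as higher and 6.76% as lower, and Dbp differed by -0.14 ± 0.46 there. In iWAT on HFD, Dbp had 11.6, 9.69 and 7.50 FPKM in irisin libraries, against 5.19, 5.58 and 5.23 FPKM in GFP libraries, a difference of 0.77 ± 0.23 (adjusted p = 0.946, limma). Nr1d1 was also higher in all 3 irisin libraries, by 0.83 ± 0.34, and these 2 genes compare with 3.21% of all genes apart in that direction. Cry1 was lower in all 3, by -0.29 ± 0.18, against 3.13% of all genes. In iWAT on chow, Dbp was the only clock gene apart, higher by 0.74 ± 0.23 in irisin libraries (adjusted p = 0.919, limma), against 8.22% of all genes. The vector comparisons on HFD and on chow share no library.

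Genes of opposite phase, and Cry1 with Dbp, were also compared inside each library, as the difference of their log2(FPKM + 0.5) values. The pairs were chosen with results known, and no test was run. Arntl minus Dbp averaged -0.76 ± 0.99 on HFD and -1.80 ± 1.03 on chow in eWAT, and -1.34 ± 0.64 on HFD and -2.58 ± 0.63 on chow in iWAT (SD, n = 6 each). In eWAT the 3 irisin chow libraries ran from -2.84 to -2.54, whereas the 3 GFP chow libraries ran from -1.12 to -0.45, inside the range of -2.59 to 0.29 of the 6 HFD libraries. The largest departure inside a group was eWAT GFP HFD 3, at -2.59, where the other libraries of its group were at 0.29 and -0.52. Cry1 minus Dbp separated the diets fully in iWAT, at -1.72 to -0.05 on HFD and -3.30 to -2.21 on chow. That separation follows from Cry1 and Dbp themselves, each of which was apart by diet there, in opposite directions. Arntl minus Nr1d1 averaged -2.80 ± 0.68 on HFD and -4.30 ± 0.42 on chow in eWAT, with no overlap, and -3.76 ± 0.75 on HFD and -4.64 ± 0.57 on chow in iWAT, with overlap (SD, n = 6 each).

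**Figure D3:**
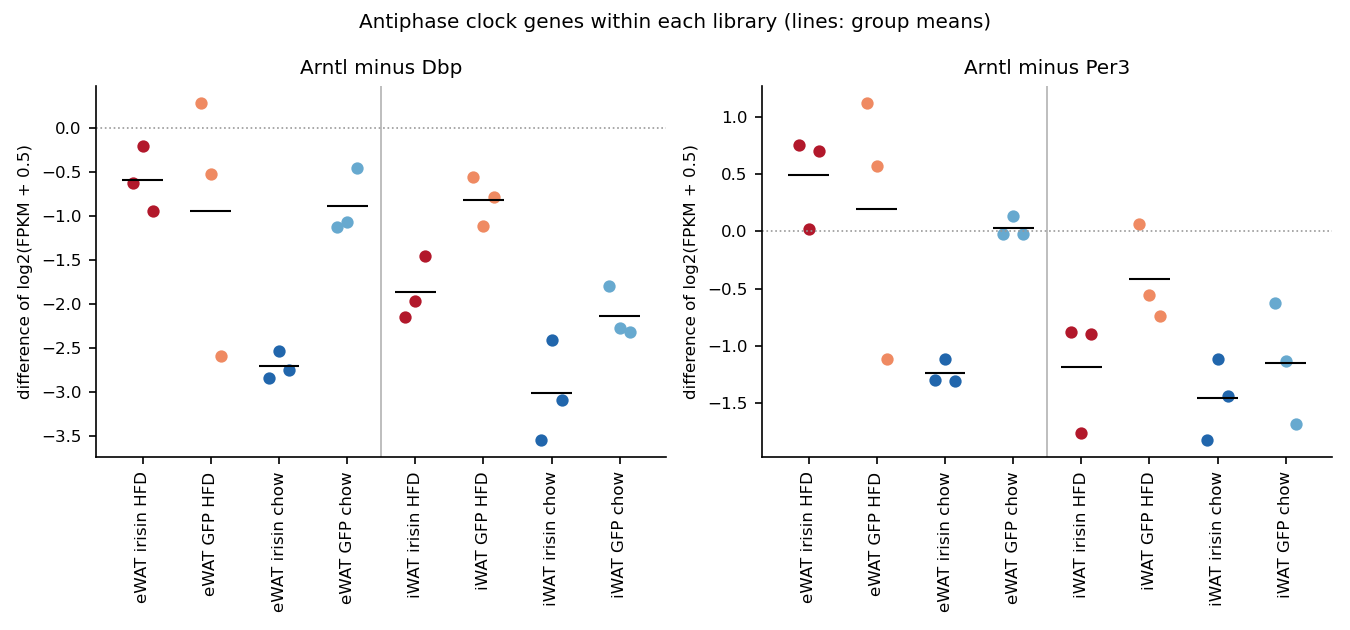
Difference of log2(FPKM + 0.5) between Arntl and Dbp (left) and between Arntl and Per3 (right), 1 point per library, lines for means of 3. In eWAT the irisin chow libraries lie at -2.84 to -2.54 for Dbp and -1.31 to -1.11 for Per3, and eWAT GFP HFD 3 lies at -2.59 and -1.11, apart from its group.

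Once group means were removed, Arntl had negative correlations with Per3 and Dbp within groups. None passed after adjustment, and the sign for Dbp in eWAT turned when libraries were left out. Arntl and Per3 had r = -0.90 over the 12 eWAT libraries (Spearman -0.69, exact permutation p = 0.0718, adjusted p = 0.538) and r = -0.47 in iWAT (exact permutation p = 0.172, adjusted p = 0.324). Without the 2 libraries farthest from the Arntl median, r for this pair was -0.62 in eWAT and -0.56 in iWAT. Arntl and Dbp had r = -0.52 in eWAT (Spearman -0.19, exact permutation p = 0.469, adjusted p = 0.682) and r = -0.30 in iWAT (Spearman -0.53, exact permutation p = 0.154, adjusted p = 0.32). The eWAT value rests on 1 library: it was 0.56 without the 2 libraries farthest from the Arntl median and 0.64 without eWAT GFP HFD 3. That library had the lowest Arntl of all 24 (1.63 FPKM) and, within eWAT HFD, the highest Dbp (12.3 FPKM), Per3 (4.08 FPKM) and Nr1d2 (14.4 FPKM). It also held the epididymis genes, whose summed level elsewhere was 0 to 0.0451 FPKM, and the part of that tissue in its clock values was not tested.

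Between genes of the same arm the correlations were uneven. In iWAT, Per1 and Per2 had r = 0.94 (Spearman 0.90, exact permutation p = 0.00617, adjusted p = 0.122, 0.96 without the 2 farthest libraries), Cry2 and Nr1d1 r = 0.85 (Spearman 0.82, exact permutation p = 0.00772, adjusted p = 0.122) and Per3 and Nr1d1 r = 0.81 (Spearman 0.74, exact permutation p = 0.00849, adjusted p = 0.122). In eWAT, Per3 and Nr1d1 had r = 0.89 (Spearman 0.73, exact permutation p = 0.0247, adjusted p = 0.538), and 0.64 without the 2 libraries farthest from the Per3 median. Other pairs of one arm were near 0 or lower: Per1 and Per2 had r = 0.20 and Per1 and Per3 -0.06 in eWAT, Cry1 and Cry2 had 0.02 in iWAT, and Nr1d1 and Nr1d2 had 0.06 in eWAT and -0.30 in iWAT. Once the composition index was removed from both genes, Nr1d1 and Nr1d2 had 0.49 in eWAT and 0.68 in iWAT. The other low pairs did not rise: Per1 and Per2 had 0.11 and Per1 and Per3 -0.21 in eWAT, and Cry1 and Cry2 had -0.60 in iWAT. Of the 45 pairs in each depot, 2 in eWAT and 12 in iWAT had an unadjusted p under 0.05 and 0 in either passed after adjustment, the tests permuting libraries within groups over all 1296 arrangements. The within-group spread behind these values was wide in places. In iWAT GFP chow, library 3 had 34.0 FPKM of Per1, 8.76 of Per2, 8.16 of Per3 and 116 of Nr1d1, whereas libraries 1 and 2 had 14.6 and 14.6 FPKM of Per1, 2.67 and 3.78 of Per2, 5.08 and 5.63 of Per3, and 64.2 and 57.0 of Nr1d1. Its Arntl of 2.21 FPKM and its Dbp of 13.0 FPKM lay close to the 2.30 and 13.1 FPKM of library 2.

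**Figure D4:**
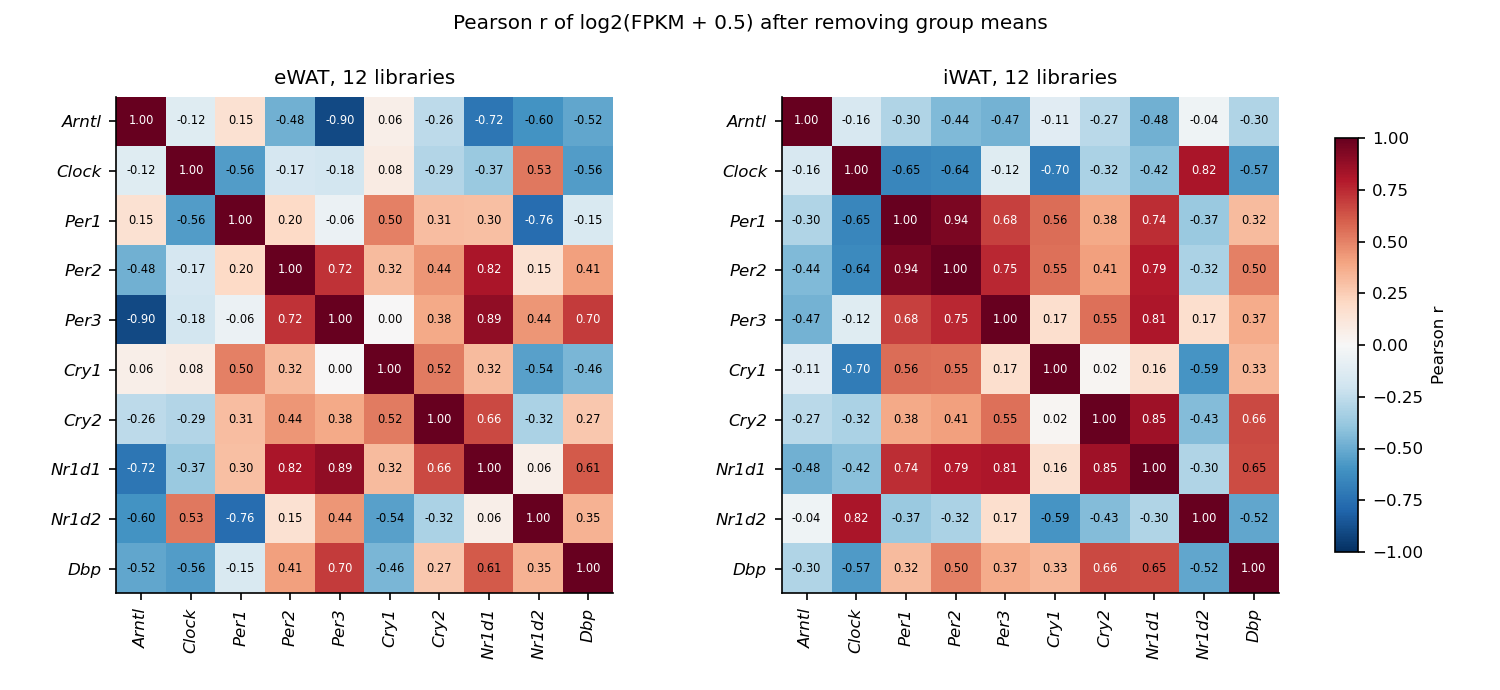
Pearson r between clock genes over 12 libraries of eWAT (left) and iWAT (right), log2(FPKM + 0.5) with group means removed; each cell prints its value. The Per genes and Nr1d1 form a positive block in iWAT (0.68 to 0.94), and Clock with Nr1d2 is positive in both depots (0.53 and 0.82).

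Clock and Nr1d2 followed the composition index of their library. Their longest annotated transcripts are the most AT-rich of the 10, at 40.9% and 41.8% GC, against 48.2% for Arntl and 61.6% for Dbp. Within groups, Clock had r = 0.95 with the index in eWAT and 0.93 in iWAT, and Nr1d2 0.65 and 0.90, whereas Dbp had -0.47 and -0.72, Per1 -0.66 and -0.62, and Arntl -0.11 and 0.03 (12 libraries each, descriptions). In eWAT GFP chow, Clock had 3.65, 8.44 and 8.19 FPKM where the index was -0.369, 0.173 and 0.317. The Clock and Nr1d2 correlation of 0.82 in iWAT became -0.09 once the index was removed from both, and the Per3 and Nr1d1 correlations became 0.92 in eWAT and 0.88 in iWAT. Whether the index reflects library preparation or the tissue was not tested.

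**Figure D5:**
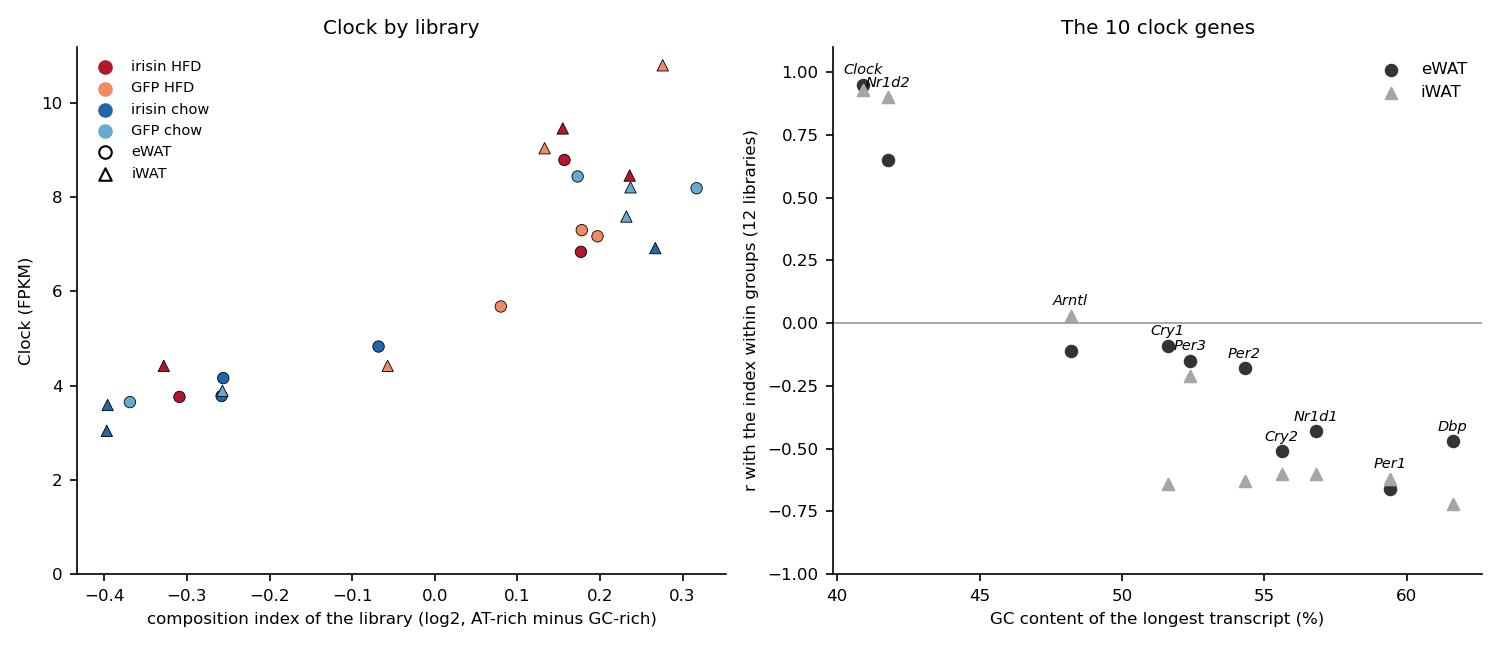
Left, Clock FPKM against the composition index of each library (log2, AT-rich minus GC-rich genes); right, Pearson r with the index within groups against the GC content of the longest transcript of each clock gene. Clock lies at 3.04 to 4.83 FPKM in every library with an index below 0 and at 5.68 to 10.8 FPKM in every library above it.

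Neighbouring genes limit some of these values, since the sources used here do not give the strand setting of the counting. Nr1d1 (chromosome 11, 98767932 to 98775333, minus strand) shares 1075 bases with Thra on the other strand, a thyroid hormone receptor gene at a mean of 25.5 FPKM. Thra moved the same way, with 15 ± 2.74 FPKM on HFD and 30.9 ± 2.26 FPKM on chow in eWAT (SD, n = 6 each), a difference of -1.04 ± 0.09 (adjusted p = 5.61e-05), and with -0.48 ± 0.12 in iWAT (adjusted p = 0.0177, both limma). Dbp (chromosome 7, 45705088 to 45710203, plus strand) shares 737 bases with Sphk2 on the other strand, a sphingosine kinase gene. Sphk2 rose by 0.41 ± 0.14 in eWAT (adjusted p = 0.0426), where Dbp fell, and differed by -0.13 ± 0.12 in iWAT (adjusted p = 0.48, both limma). Per3 lies inside Camta1 on the same strand, and Cry2 shares part of its span with a transcript on the other strand. Clock shares 459 bases of its span with a pseudogene on the same strand, at a mean of 4.68 FPKM. It also overlaps a gene on that strand at 0.012 FPKM. Arntl shares part of its span with an antisense gene at 0.111 FPKM. Positions are those of the deposited table, which equal those of GENCODE M21 (GRCm38) for all 10 genes.

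Some genes around the core loop were called in the same direction in both depots. The share of all genes called the same way in both is not given here. Of 15 feedback and output partners 14 were tested. On HFD 1 passed as higher and 3 as lower in eWAT, and 1 as higher and 5 as lower in iWAT. Of all genes 20.9% passed as higher and 18.4% as lower in eWAT, and 9.45% and 8.02% in iWAT. Wee1, a cell-cycle kinase gene with E-boxes in its promoter, had 5.13 ± 2.01 FPKM on HFD and 1.78 ± 0.513 FPKM on chow in eWAT (SD, n = 6 each), and rose by 1.26 ± 0.15 there (adjusted p = 0.000174) and by 0.65 ± 0.13 in iWAT (adjusted p = 0.0091, both limma). Tef, a relative of Dbp acting on the same D-boxes, fell by 0.69 ± 0.14 in eWAT (adjusted p = 0.00351) and by 0.53 ± 0.13 in iWAT (adjusted p = 0.017). Arntl2, the paralogue of Arntl, fell by 0.56 ± 0.12 in eWAT (adjusted p = 0.00359) and by 0.89 ± 0.11 in iWAT (adjusted p = 0.000674, all limma). Bhlhe41, an E-box repressor, fell by 0.95 ± 0.18 in iWAT (adjusted p = 0.00543) and differed by 0.40 ± 0.28 in eWAT, and here the difference between the depots passed (1.35 ± 0.35, adjusted p = 0.0123, all limma).

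Of 8 kinase and ubiquitin ligase genes that act on PER and CRY proteins, 7 were tested and 1 passed in each depot, against 39.3% of all genes in eWAT and 17.5% in iWAT. Gsk3b rose by 0.53 ± 0.11 in eWAT (adjusted p = 0.00365) and by 0.67 ± 0.14 in iWAT (adjusted p = 0.0106, both limma). Of 8 glucocorticoid-responsive genes, all tested, 2 rose and 1 fell in eWAT and 1 rose and 2 fell in iWAT, against the shares of all genes given for the partners. Sgk1 (1.07 ± 0.18) and Dusp1 (0.85 ± 0.15) rose and Zbtb16 (-1.29 ± 0.28) fell in eWAT, whereas Tsc22d3 (0.96 ± 0.20) rose and the metallothionein genes Mt1 (-1.48 ± 0.19) and Mt2 (-1.65 ± 0.27) fell in iWAT. Per1, itself a glucocorticoid target, fell in eWAT as given above. No gene of these 3 lists was called between irisin and GFP in any of the 4 comparisons. Between the depots, 3 partners were higher and 5 lower in eWAT, against 14.1% and 11.3% of all genes, among them Arntl2 (-0.50 ± 0.07), Tef (-0.59 ± 0.10), Usp2 (-0.57 ± 0.11) and Npas2 (0.50 ± 0.12), the last a substitute for Clock.

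Among the 11544 protein-coding genes averaging 1 FPKM or more, clock genes included, those whose level followed Dbp most closely within groups over the 24 libraries were Aldh3a2 (r = 0.81), Mal (0.81), Dlg5 (0.81), Rem1 (0.79) and Lyrm9 (0.79). Those most opposed to Dbp were Csnk2a1 (-0.79), Chordc1 (-0.79), Arl13b (-0.78), Gtf2a1 (-0.78) and Nbdy (-0.78). Per3 (0.58) and Nr1d1 (0.55) ranked 277 and 377 in likeness to Dbp. For Arntl the closest were Gngt2 (0.78), Gm6793 (0.77), Il1rl1 (0.76), Tex30 (0.75) and Rpl30 (0.73), and the most opposed Osbpl2 (-0.86), Lap3, Pabpc1l, Fat1 and Ldhd (-0.85 each). Among the clock genes, Per3 (-0.73) and Nr1d1 (-0.57) were most opposed to Arntl and Dbp came next (-0.45). These values are descriptions over libraries that share depth and composition, and Csnk2a1 itself had r = 0.76 with the composition index. They include eWAT GFP HFD 3, which had the lowest Arntl of all 24 libraries (1.63 FPKM) and held the epididymis genes. No value without that library is given for these lists.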

How the data were processed

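The authors deposited 1 table of FPKM values per gene for all 24 libraries, made with HISAT2 2.0.5 and featureCounts 1.5.0-p3, per the submitters' processing notes; the sources used here give neither the genome build nor the strand setting of the counting. The table also holds 8 columns headed by group codes, which were not used, and gene lengths, which give FPKM as deposited its per-kilobase scale. Multiplying FPKM by length and by 1 factor per library gave whole reads within a tolerance of 0.01 for all values in 24 of 24 libraries, so whole reads were recovered and totals (14145644 to 19726771) are known. The library size implied by the deposited FPKM was 0.912 to 1.15 times the recovered total. With 3 libraries a group, the precision of a group mean rests mainly on the spread between libraries.

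From these values log2(FPKM + 0.5) was fitted with limma 3.58.1 (R 4.3.3, trend option), over the 12 libraries of a depot or all 24, keeping a gene that reached 0.5 FPKM in 3 or more fitted libraries. P-values were adjusted over all genes tested (Benjamini-Hochberg), and a gene was called at an adjusted p under 0.05. Fold changes of low genes are understated by the added 0.5. Alternatives were other pseudocounts (0.1 and 1), no filter, a 1 FPKM filter, upper quartile scaling, limma voom on the recovered reads, only the groups compared, a replicate block and leaving out each library. The fits were tested on simulated data. Named genes were all 10 members, called genes of 3 further lists (up to 4 by adjusted p in each comparison), Thra as an overlapping gene, Sphk2 and Camta1 added for their overlaps after the data were seen, and for Dbp and Arntl the 5 most and least correlated genes. The members and lists were chosen with earlier results of these data known. GC content came from the longest GENCODE M21 transcripts, with a value for 99.9% of the 11534 protein-coding genes averaging 1 FPKM or more, clock genes left out. AT-rich meant under 42% and GC-rich over 55% GC. Of 54409 shared genes, 98.3% have the M21 position and strand. The values of 1 called partner gene are not reported here.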

Additional observations from a re-analysis of the deposited data

Results flagged for a closer look

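The diet difference (HFD minus chow, both viruses averaged) was itself different between eWAT and iWAT for 7 genes named beside the clock genes, by the limma test of that difference over 24 libraries, and for 0 of the 10 clock genes. In eWAT minus iWAT on the log2 scale it was 1.44 ± 0.25 for Mt1 (adjusted p = 0.00093), 1.78 ± 0.44 for Mt2 (adjusted p = 0.0103) and 1.1 ± 0.19 for Dusp1 (adjusted p = 0.000952, all limma) among the glucocorticoid-responsive genes. Among the clock partners it was 1.35 ± 0.35 for Bhlhe41 (adjusted p = 0.0123), 0.71 ± 0.24 for Npas2 (adjusted p = 0.0489) and 0.61 ± 0.20 for Wee1 (adjusted p = 0.0428, all limma). It was -0.56 ± 0.15 for Thra, which overlaps Nr1d1 (adjusted p = 0.0156, limma). The same test gave a difference for 16.1% of all genes.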

How the results depend on the processing

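No clock gene that passed reversed its direction under any alternative tried. In eWAT with both viruses averaged, Nr1d1, Per1, Per3 and Cry2 passed under all 21 alternatives, whereas Per2 lost its call under 12, Dbp under 10 and Cry1 under 6; in iWAT, Dbp and Cry1 passed under all 21 and Nr1d1 lost its call under 11. In the depot comparison Per1, Per2, Per3, Cry2 and Nr1d1 passed under all 33 alternatives and Dbp lost its call under 12. With no filter on low values, which raises the number of genes adjusted over, the count of clock genes called was 4 in eWAT averaged (7 with the filter), 3 in eWAT irisin mice (7 with it) and 0 in iWAT GFP mice (2 with it). Fitting only the groups compared gave 0 in iWAT GFP mice. Without the 4 libraries rich in other tissues the count was 2 in eWAT GFP mice (1 with them), 0 in iWAT GFP mice and 0 in iWAT irisin mice (1 with them), and with the composition index as a covariate 4 in iWAT GFP mice and 2 in iWAT irisin mice. The cause of these changes in count was not tested. Leaving out 1 library at a time gave 4 to 7 calls in eWAT averaged (4 without irisin chow 1 or 3), 2 to 7 in eWAT irisin mice (2 without irisin chow 3), 1 to 2 in eWAT GFP mice, 2 to 5 in iWAT averaged (5 without irisin HFD 2), 0 to 2 in iWAT GFP mice (0 without GFP chow 1, GFP chow 2 or GFP HFD 2), 0 to 1 in iWAT irisin mice (0 without irisin chow 1, irisin chow 3 or irisin HFD 3), 5 to 7 between depots and 0 to 0 in every vector comparison, interaction and depot difference of the diet effect. The Arntl and Dbp correlation ran from -0.84 to 0.64 in eWAT, turning positive without GFP HFD 3, and from -0.45 to -0.17 in iWAT. Whether replicate numbers pair the libraries could not be settled with 3 libraries a group. In no pair of groups compared did all same-numbered libraries deviate together (r over 0.1). For iWAT GFP HFD with iWAT GFP chow the values were 0.08, 0.18 and 0.11. There, and in eWAT for GFP HFD with irisin HFD and GFP chow with irisin chow, the own number was the best match for all 3 libraries. It was the best match for 0 libraries in eWAT GFP HFD with eWAT GFP chow or iWAT GFP HFD, and in iWAT GFP chow with iWAT irisin HFD. With the number as a replicate block the count was 1 in iWAT GFP mice and 2 in iWAT averaged, the Arntl and Dbp correlation was -0.50 in eWAT and -0.70 in iWAT, and no other count changed. Counts of all genes called moved by over 1.5 times in these cases: eWAT GFP mice 2670 without the 4 libraries (4310 with them), eWAT irisin mice 1393 with only the groups compared (2831), iWAT irisin mice 894 with no filter (1453), and iWAT GFP mice 382, against 161 with no filter, 0 with only the groups compared, 251 without the 4 libraries and 915 with the index. The vector comparisons (0 each) and interactions (1 in eWAT, 0 in iWAT) ran from 0 to 6 genes. Cry1, the member with the fewest reads, had 89 to 328 per library, Dbp 121 to 1262 and Arntl 211 to 497. Only the voom fit weighted values by reads, and elsewhere counting error is part of the spread between libraries.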
